A study of Mus musculus with 2 samples.

Results

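The Areg and Wfdc2 high cancer cells were 232 of the 2311 non-mitotic, keratin-rich cancer cells in a library made from tumors of mice grafted with KPCA.FSTKO cells. That library held 7582 barcodes and the series 11826. A member belonged to the 10% of these cancer cells with the highest share of unique molecular identifiers (UMIs, each a count of 1 captured mRNA molecule) from Areg, Wfdc2, Prl2c2 and Npnt summed, called the score genes here. The remaining 2079 cells are called the other cancer cells. Because measured levels chose the members, each difference between members and other cancer cells is a description of 1 library, given with no test.

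KPCA is a mouse line of fallopian tube epithelial origin used as a model of high-grade serous ovarian cancer, with mutant Trp53 and overexpressed Ccne1 and Akt2 among its alterations. KPCA.FSTKO cells also lack Fst, the gene of the activin-binding protein follistatin. KPCA.FSTKO_hFSTL3 cells carry the same Fst knockout and a human FSTL3 plasmid kept under geneticin, and are 1 clone picked for FSTL3 secretion. Female C57BL/6J mice of 12 to 16 weeks received either line by intraperitoneal injection, no treatment is stated for the tumors sequenced, and 4 omental tumors per line were dissociated at day 10 post-graft and pooled into 1 library per line. Without a second library of either line, no value had a replicate check, pooled tumors could not be told apart, and all intervals are 95% intervals that cover counting error alone.

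Amphiregulin, the product of Areg, is a membrane-anchored ligand of the epidermal growth factor receptor (EGFR) that is released by shedding and acts on the cell of origin and its neighbours. Wfdc2 encodes HE4, a secreted WAP domain protein measured in blood as a marker of ovarian carcinoma. Prl2c2 encodes proliferin, a secreted hormone of the prolactin family known from placenta and from growing mouse cells, and Npnt encodes nephronectin, a basement membrane ligand of integrins. Ccnd1, also listed as a marker of these cells but not part of the score, encodes cyclin D1, which drives cells through G1 and is induced by growth factor signalling.

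The genes lie on different chromosomes of GRCm38. Areg (ENSMUSG00000029378) spans chr5:91139599-91148432 and Wfdc2 (ENSMUSG00000017723) chr2:164562413-164568510, both on the plus strand. Npnt (ENSMUSG00000040998) spans chr3:132881745-132950291, Prl2c2 (ENSMUSG00000079092) chr13:12996125-13005383 and Ccnd1 (ENSMUSG00000070348) chr7:144929931-144939925, all on the minus strand. Prl2c2 shares 71.5% of its 50-base stretches with Prl2c3 and 22.2% with Prl2c5, so its counts are uncertain where the aligner set aside reads that match more than 1 gene.

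Promoters from RefSeq (GRCm38.p6) were searched on both strands for the letters of 3 motifs, TGACGTCA (the cyclic AMP response element, CRE), TGACTCA (AP-1) and GGAATG (TEAD). Of 32851 promoters of 300 bases, from 250 before to 50 after the start, 1.79% held the first, 5.20% the second and 14.7% the third. Entries existed for 7 of the 9 genes looked up. Areg held the CRE letters, beginning 61 bases before its start, and F3, the gene of tissue factor and 1 of the 12 genes with the largest ratios described below, held TGAGTCA, the reverse complement of the AP-1 letters, beginning 135 bases before its start. Acan held CATTCC, the reverse complement of the TEAD letters, and neither Wfdc2, Npnt, Krt7 nor Tgfa held any of the 3. No promoter among these held more than 1 of the 3 motifs. The 250 bases before each start are shown because Areg gave the members the largest ratio of the score genes and F3 had a named motif in the same window. The Areg run lies at chr5:91139349-91139598 and the F3 run at chr3:121723287-121723536, both on the plus strand and 5′ to 3′, with the motif in capitals.
Areg: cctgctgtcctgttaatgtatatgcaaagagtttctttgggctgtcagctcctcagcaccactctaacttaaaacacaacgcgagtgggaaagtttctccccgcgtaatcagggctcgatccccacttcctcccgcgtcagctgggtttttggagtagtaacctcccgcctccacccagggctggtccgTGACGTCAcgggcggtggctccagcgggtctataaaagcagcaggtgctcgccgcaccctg
F3: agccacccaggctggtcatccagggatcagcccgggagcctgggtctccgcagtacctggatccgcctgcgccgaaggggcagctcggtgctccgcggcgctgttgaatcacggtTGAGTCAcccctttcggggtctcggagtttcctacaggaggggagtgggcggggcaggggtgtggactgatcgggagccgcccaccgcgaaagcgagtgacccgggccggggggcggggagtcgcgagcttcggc
A match of letters is not a measured binding site.

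KPCA.FSTKO barcodes had a median of 16368 UMIs and 168214773 together, and 6777 of them passed the filters on mitochondrial share and gene number. Of these, 2803 were keratin-rich and 492 of them exceeded the limit on mitotic genes. Members had a median of 29871 UMIs (lowest 6323, highest 80790) and other cancer cells 29089. The median mitochondrial share was 3.27% and 3.56%, respectively. The libraries shared 12 barcodes, 1 of them a member. Fst had 53 UMIs in members and 363 in other cancer cells, or 7.0 and 5.57 counts per 1000000 UMIs of the group (CPM, the unit of all levels below). A 3' count does not read an edit elsewhere in the gene, so this level checks nothing about the knockout.

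The members' label was compared with marker genes. The rule required a summed share of at least 0.1% of UMIs from Krt7, Krt8, Krt18 and Krt19, and no single one of them. In members these were at 471, 1444, 1349 and 2102 CPM. The ovarian tumor antigen Msln was at 823 CPM in members and 551 CPM in other cancer cells. The study also took Msln and Krt19 as mesothelial markers. A Ccnd1 UMI was found in 99.1% of members and 96.2% of other cancer cells, so its detection did not set members apart. Of 62 markers of 12 other cell types, 22 were at 0 in all members, among them the T cell genes Cd3d, Cd3e and Cd3g, the B cell genes Cd79a and Cd79b, the endothelial gene Kdr and the mesothelial genes Upk3b, Wt1 and Muc16. Pecam1 was at 0 by the rule. The 62 markers together took a median of 0.0168% of a member's UMIs and 0.0519% of those of another cancer cell. At least 0.1% was reached by 5.17% of members and 31.6% of other cancer cells. The keratin gate therefore held more UMIs of these markers outside the members than in them. The fibroblast markers among them summed to 125 CPM in members and 852 CPM in other cancer cells. Whether such UMIs came from other cells or from the cancer cells themselves was not tested. Ratios are also given over the 220 members and 1422 other cancer cells under 0.1%. These are called the purer cells below, a name that refers to these markers alone.

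The score formed a continuum without a gap at the limit. The lowest member had a score of 0.17452% of UMIs and the highest of the other cancer cells 0.17419%. Within 10% of the limit lay 56 members and 62 other cancer cells. The median score was 0.220% in members (highest 0.641%) and 0.0420% in other cancer cells. By this score, members are thus the upper end of a range.

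**Figure D1:**
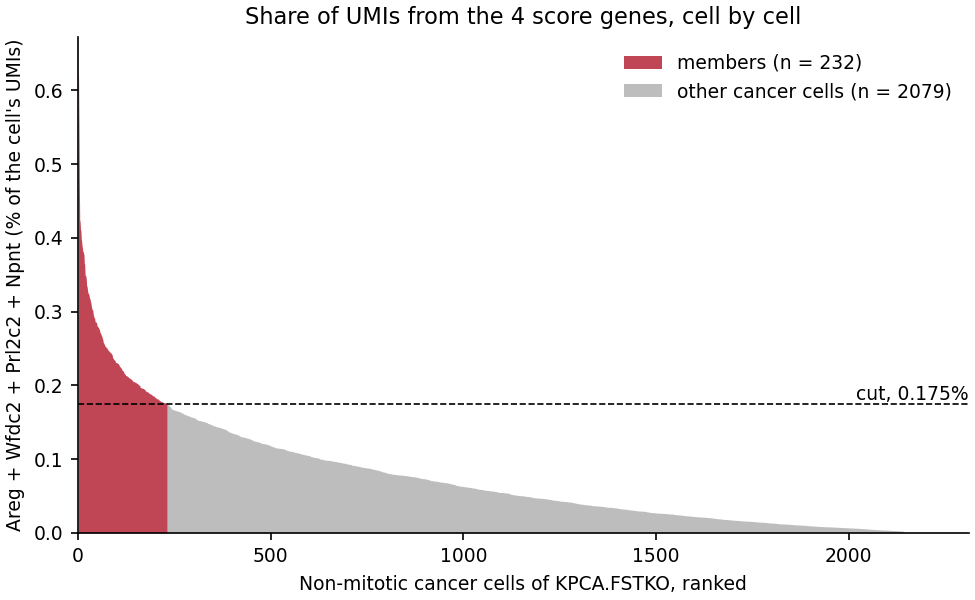
Share of each cell's UMIs from Areg, Wfdc2, Prl2c2 and Npnt (y axis, percent) in the 2311 non-mitotic cancer cells of KPCA.FSTKO, ranked from highest to lowest (x axis). The 232 members (red) lie above the dashed limit of 0.175% and pass into the 2079 other cancer cells (grey) without a break.

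By the rule, all 4 score genes were higher in members. Wfdc2 had 11856 UMIs in members and 23611 in other cancer cells, or 1567 and 362 CPM, a ratio of 4.32 (4.23 to 4.42). Per cell, its level had a median of 16.1 UMIs per 10000 in members (lowest 0, highest 58.1) and 2.21 in other cancer cells (0 to 17.3). Wfdc2 was the most abundant score gene and gave 65.8% of the members' score UMIs.

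Areg was at 417 CPM in members (3156 UMIs) and 72.1 CPM in other cancer cells (4699 UMIs), a ratio of 5.78 (interval 5.53 to 6.05). Its median per cell was 1.41 UMIs per 10000 in members, with a highest value of 24.0, and 0 in other cancer cells, with a highest value of 13.5. Areg had the largest ratio of the 4 and was also uneven among members, 57 of which had no Areg UMI.

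Npnt was at 327 and 120 CPM, a ratio of 2.72 (2.60 to 2.85), and Prl2c2 at 71.4 and 17.7 CPM, a ratio of 4.04 (3.64 to 4.47). Prl2c2 was the scarcest of the 4, with no UMI in 153 of the 232 members. Wfdc2 had the most UMIs in 203 members, Areg in 22 and Npnt in 7. UMIs of all 4 genes were found in 69 members, of 3 in 104, of 2 in 51 and of 1 in 8. A high score was therefore mostly a high Wfdc2 level, with Areg, Npnt and Prl2c2 added in varying numbers of cells.

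Free RNA in droplets can give UMIs to cells that do not make them, so cells with macrophage markers and low keratin served as background. After thinning each cell to 5000 UMIs, Areg was detected in 46.6% of members (40.0 to 53.2%), 17.4% of other cancer cells and 1.89% of 688 macrophage-marker cells. Wfdc2 was detected in 98.7%, 58.6% and 6.69%, Npnt in 68.1%, 35.7% and 4.65% and Prl2c2 in 16.8%, 5.92% and 0.145%, respectively. Before thinning, the shares with an Areg UMI were 75.4%, 39.1% and 4.94%, at median depths of 29871, 29089 and 14032 UMIs. Members and other cancer cells both lay above the background for each score gene.

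To describe the genes apart from their own part in the choice, each was measured in the 10% of cells with the highest share of the remaining 3. Areg was then at 236 CPM in the chosen cells and 94.4 CPM in the rest, a ratio of 2.51 (2.37 to 2.65). The ratios of Wfdc2, Prl2c2 and Npnt were 1.84 (1.79 to 1.89), 3.03 (2.72 to 3.39) and 1.95 (1.85 to 2.05). All 4 remained higher in cells picked without them, though by less than in members. Cells were also picked on a random split of their UMIs and measured on the other UMIs. Each score gene still took part in that choice, and most of the 232 cells were also members. The split therefore addresses counting error alone and does not describe a gene apart from its part in the choice. The ratio on the split was 5.27 for Areg, 3.98 for Wfdc2, 4.30 for Prl2c2 and 2.46 for Npnt. Across the 2311 cells, thinned to 5000 UMIs, rank correlations (Spearman's rho) between score genes ran from 0.08 for Prl2c2 with Npnt to 0.25 for Wfdc2 with Npnt, as a description of cells of 1 library.

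Ccnd1 was at 1104 CPM in members (8355 UMIs) and 664 CPM in other cancer cells (43224 UMIs), a ratio of 1.66 (1.63 to 1.70). Per cell its median was 9.05 UMIs per 10000 in members (0 to 32.2) and 5.02 in other cancer cells (0 to 33.2), so single cells of the groups overlapped over nearly the whole range. Over 10 equal bins of cells ordered by score its level went from 353 CPM in the lowest to 1105 CPM in the highest. Among cells in the shallowest, middle and deepest range of UMIs, its ratio was 2.08, 1.66 and 1.56. On the split UMIs the ratio was 1.57 (1.52 to 1.63), and over the purer cells 1.58. Ccnd1 was detected after thinning in 92.7% of members, 82.4% of other cancer cells and 37.5% of macrophage-marker cells, so its background share is not low.

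**Figure D2:**
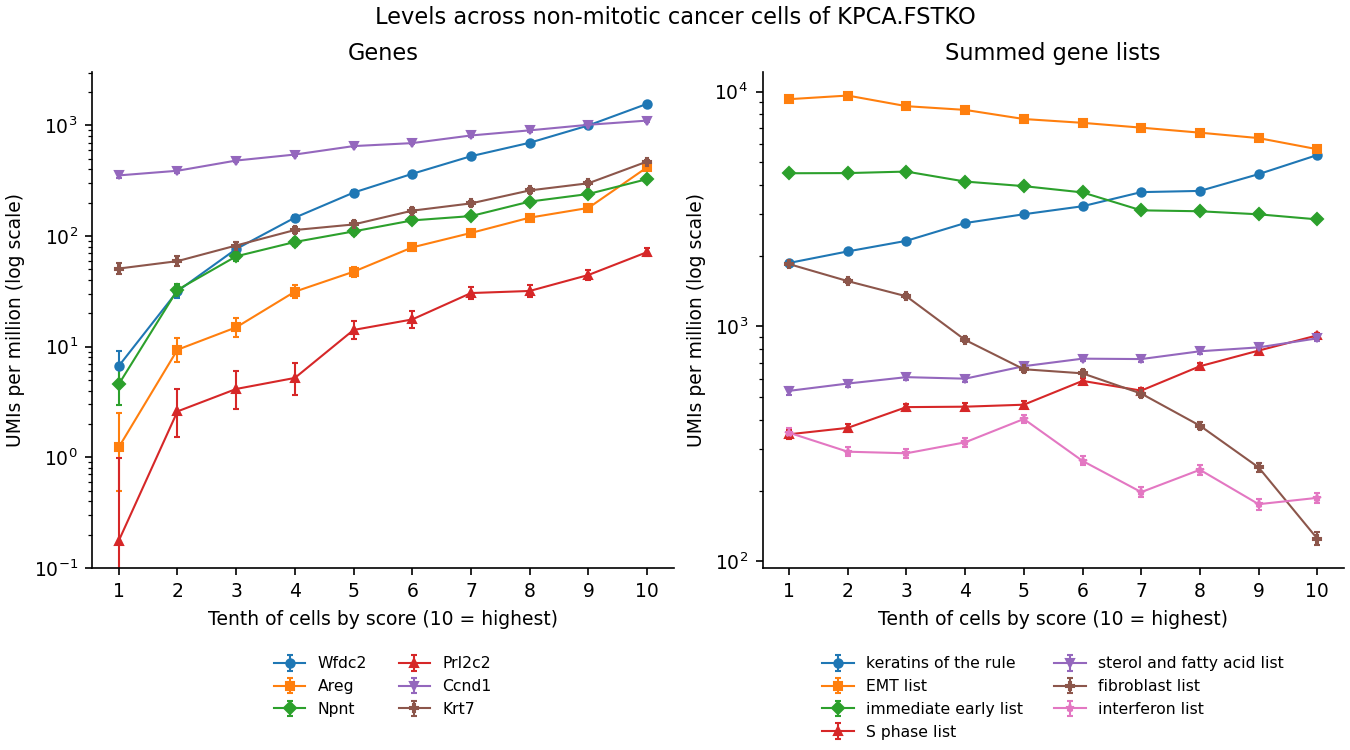
Summed level in CPM (log scale, with 95% Poisson intervals) over 10 equal bins of the 2311 non-mitotic cancer cells of KPCA.FSTKO, ordered by score. Ccnd1 and Krt7 ran upward with the score genes (left), and the fibroblast list went from 1843 to 125 CPM and the S phase list from 347 to 916 CPM (right).

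Genes outside the score were compared by size alone, with a minimum of 500 UMIs in members and other cancer cells together and a ratio of 1.5 or more in either direction. Of 9178 genes compared, 550 were higher in members (5.99% of those compared) and 549 lower (5.98%), with a median log2 ratio of 0.05. "Higher" and "lower" below refer to this size rule. TMM scaling (a trimmed mean of gene ratios) moved every log2 ratio by -0.06, which takes genes just past 1.5, such as Phlda1 and Psmb10 below, under the rule, and gave 409 higher and 658 lower. Over the purer cells 411 of 8369 genes were higher (4.91%) and 254 lower (3.04%), so the number of lower genes shrank more than that of higher genes. These shares over all genes are the background for the counts in each gene list below, many of which are short.

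The 12 largest ratios ran from 3.01 to 4.75. Acan, which encodes the matrix proteoglycan aggrecan, was at 68.3 CPM in members and 14.4 CPM in other cancer cells, a ratio of 4.75 (4.25 to 5.29). Krt13, a keratin of stratified epithelium, was at 100.4 and 25 CPM (ratio 4.02). Cldn6, an oncofetal tight junction gene, was at 22.5 and 5.37 CPM (4.18), and the desmosome-associated p53 target Perp at 20.9 and 5.80 CPM (3.60). These were modest levels next to Krt7, a simple epithelial keratin that counts toward the gate, which was at 471 and 156 CPM, a ratio of 3.02 (2.91 to 3.14).

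F3, the initiator of blood clotting, was at 119 and 38.3 CPM (3.1), and the cell adhesion gene Nrcam at 77.7 and 24.8 CPM (3.14). Eya2, a transcriptional cofactor and phosphatase, had a ratio of 4.20, Gchfr, the regulator of GTP cyclohydrolase, 3.46, Upp1, which splits uridine, 3.32, and the transporter gene Slc16a6 3.01. The ratio of Crisp1, 4.37, rested on few cells: 5 members held 69.3% of its 192 member UMIs, and 9.48% of members had any. For Acan the 5 highest members held 15.7% of the UMIs and for Krt7 13.4%. Over the purer cells all 12 ratios stayed between 2.63 (Upp1) and 4.35 (Crisp1).

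The 12 smallest ratios belonged mostly to genes of matrix and fibroblasts. Col5a3, Pdgfrb, Postn, Cthrc1, Prelp, Dpt and Ccn5, a collagen chain, the platelet-derived growth factor receptor beta and matrix or matricellular proteins, had ratios from 0.03 to 0.10. Ccn5 had 3 UMIs in members and 747 in other cancer cells, a ratio of 0.03 (0.01 to 0.10), and Dpt 25 and 2192. The fibroblast marker list summed to 125 CPM in members and 852 CPM in other cancer cells, with 5 of 5 compared genes lower (Pdgfrb, Col1a2, Col3a1, Dcn and Col1a1). Its part in these ratios was not tested, but over the purer cells the ratio of Postn was 0.48 and that of Tmem119 0.40, against 0.08 and 0.10 in all cells. The chemokine genes Ccl7 and Cxcl10 and the antiviral gene Ifit1 had ratios of 0.05, 0.07 and 0.06, from 6, 5 and 4 member UMIs. For Ifit1 and Cxcl10 the ratio was as low over the purer cells, at 0.04 and 0.07. Rbms3, which encodes an RNA-binding protein, had a ratio of 0.08.

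**Figure D3:**
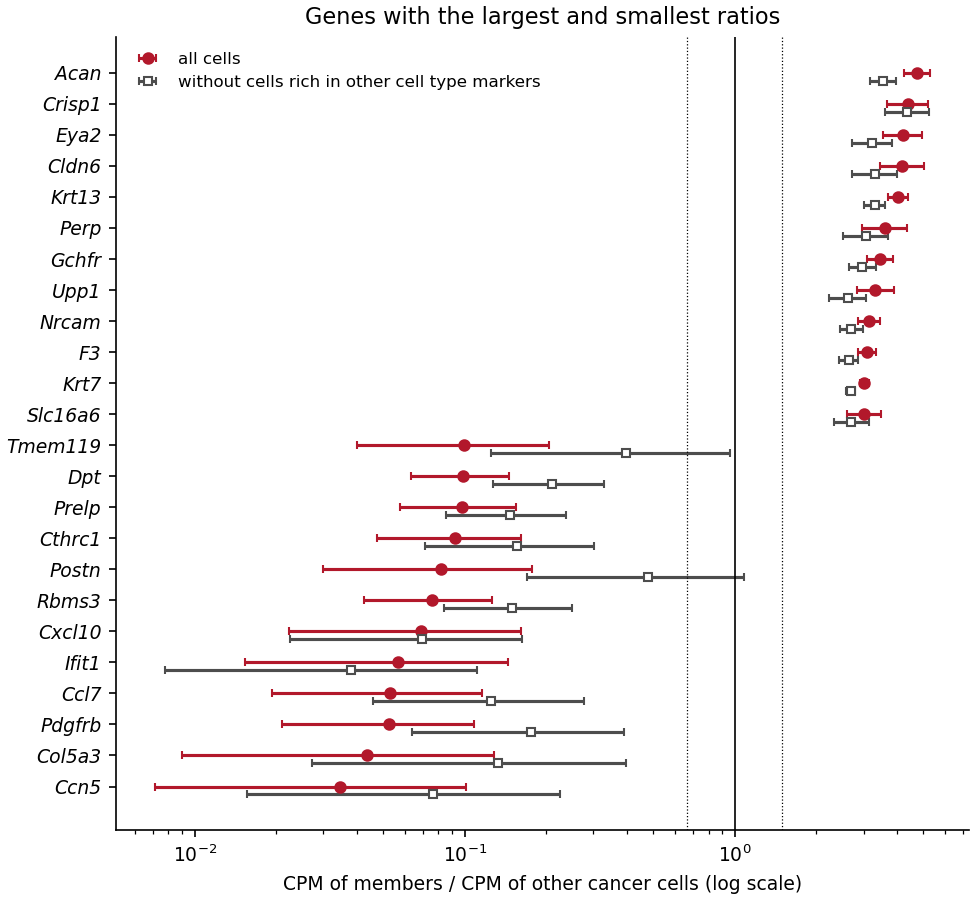
Ratio of CPM in members over other cancer cells (log scale, 95% counting intervals) for the 12 highest and the 12 lowest genes, in all cells (red) and without cells rich in markers of other cell types (open squares). Without those cells the upper 12 lay between 2.63 and 4.35, and Postn and Tmem119 lay nearer to 1.

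Among ligands of the EGFR family, 2 of the 5 compared besides Areg were higher. Tgfa, which encodes transforming growth factor alpha, was at 28.8 CPM in members and 13.4 CPM in other cancer cells, a ratio of 2.15 (1.85 to 2.50). Hbegf, heparin-binding EGF, was at 338 and 214 CPM (1.58). Btc (betacellulin) had a ratio of 1.43, Nrg1 (neuregulin 1) 1.43 and Ereg (epiregulin), the neighbour of Areg in the family, 0.99 (0.81 to 1.19), at 16 and 16.2 CPM. Over the purer cells Tgfa (1.84) stayed past the rule and Hbegf (1.48) did not. None of 8 receptors and sheddases of the family passed the rule, and Egfr itself was at 66.7 and 85.6 CPM (0.78).

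Of 19 feedback and target genes of the ERK pathway, which runs downstream of EGFR, 4 were higher and 2 lower. Among all genes 5.99% were higher and 5.98% lower. The list had a median log2 ratio of 0.09 beside 0.05 for all genes. The higher ones were Ccnd1, the ephrin receptor genes Epha4 (2.15) and Epha2 (1.77) and Phlda1 (1.51), and the lower ones Il1rl1 (0.45) and Spry1 (0.60), of which Phlda1 (1.47) and Spry1 (0.90) did not pass over the purer cells. Of 16 immediate early and AP-1 genes none was higher and 6 were lower: Fos at 181 CPM in members and 386 CPM in other cancer cells (0.47), Zfp36 (0.51), Btg2 (0.59), Fosb (0.66), Nr4a1 (0.66) and Egr1 (0.66). The median of that list was -0.40 on the log2 scale, and over the purer cells 2 of 14 were lower (Fos and Zfp36) with a median of -0.22. YAP and TEAD target genes gave 2 higher (F3 and Ankrd1) and 3 lower (Tgfb2, Ccn2 and Lats2) of 15. Ankrd1 (1.38) and Tgfb2 (0.93) did not pass over the purer cells.

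Genes of DNA replication were higher together. Of 22 S phase genes compared, 15 were higher and 0 lower (5.99% higher among all genes), all 22 ratios exceeded 1, and the median log2 ratio was 0.76. Rrm2, a subunit of ribonucleotide reductase, was at 64.4 CPM in members and 26.4 CPM in other cancer cells (2.43), and the helicase subunit Mcm5 at 25.1 and 10.4 CPM (2.41). Uhrf1, which keeps DNA methylation through replication, had a ratio of 2.40, Tyms, for thymidylate synthesis, 2.08, and the sliding clamp Pcna 1.80 (106 and 58.9 CPM).

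Per cell the S phase list took a median of 4.44 UMIs per 10000 in members (quartiles 2.98 and 8.68) and 3.19 in other cancer cells (2.16 and 4.90). The higher sum thus came from an upper tail of members as well as a shifted median. Without the cells rich in other cell type markers, 14 of 19 were higher and 0 lower, and the median of 0.80 was as large.

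Mitotic genes behaved likewise although the rule removed the cells richest in 8 of them. Of 12 G2 and M phase genes outside those 8, 7 were higher and 0 lower (median log2 ratio 0.62), with Ccnb2, the gene of cyclin B2, at 44.0 and 18.8 CPM (2.34), Birc5 (survivin) at 2.11, Cdca3 at 2.04, Kif23 at 1.79, Bub1 at 1.75, Bub1b at 1.55 and Tacc3 at 1.52. The 8 mitotic genes of the rule took a median of 0.0113% of UMIs in members and 0.00623% in other cancer cells, both far under the limit of 0.1%. Among the 492 cancer cells above that limit, which were not candidates, 87 had a score over the members' limit, or 17.7% (14.4 to 21.3%), against 10% of the non-mitotic cells by construction. A score over the limit was therefore more frequent among the cells above the mitotic limit in this library. Those cells were also deeper, with a median of 37843 UMIs. None of 688 macrophage-marker cells reached the limit, which allows a share of up to 0.535%.

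Of 17 G1 genes, Ccnd1, Ccnd2 (1.59, 93.7 and 58.9 CPM) and the pocket protein Rbl1 (1.79) were higher, and the cyclin-dependent kinase inhibitors Cdkn1b (0.64, 35.8 and 55.6 CPM) and Cdkn2c (0.66) were lower. Among the purer cells Ccnd2 (1.49) and Cdkn2c (0.87) did not pass the rule. Cdkn2a had a ratio of 1.05, Cdk4 of 0.91 and Cdk6 of 1.44. Of 11 p53 targets, Aen (1.64) and Gdf15 (1.71) were higher. The Gdf15 ratio rested in part on few cells, since 5 members held 36.4% of its UMIs.

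Of 19 genes of cholesterol and fatty acid synthesis compared, 9 were higher, 10 lay between the limits and 0 were lower, with a median log2 ratio of 0.51. Elovl6, a fatty acid elongase, was at 39.4 CPM in members and 18.4 CPM in other cancer cells (2.15), Insig1, a sterol sensor partner, at 1.82, Fdps at 1.71, Sqle, squalene epoxidase, at 1.68, Sc5d at 1.56, Dhcr7 at 1.56 and Acly at 1.5. Scd2 (0.93, 194 and 209 CPM) did not pass the rule. Among the purer cells 8 of 19 were higher and 0 lower. In the deepest range of UMIs the summed list had a ratio of 1.18, against 1.38 in the shallowest and 1.51 in the middle range.

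Some epithelial genes were higher and some mesenchymal genes lower in members. Cdh1, the gene of E-cadherin, was at 68.1 CPM in members and 37.6 CPM in other cancer cells (1.81), and the epithelial transcription factor Elf3 at 16.5 and 9.90 CPM (1.67); the other 5 of 7 keratin and junction genes compared did not pass the rule. Epcam had 149 UMIs in members and 214 in other cancer cells, under the minimum of 500, and 5 members held 77.2% of the former. Its higher sum therefore describes few cells.

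Of 14 genes of the epithelial-mesenchymal transition (EMT), none was higher and 8 were lower, with a median log2 ratio of -0.66. Fn1, the gene of fibronectin, was at 981 CPM in members and 2277 CPM in other cancer cells (0.43, interval 0.42 to 0.44), Tgfbi at 29.5 and 108 CPM (0.27), Sparc at 256 and 498 CPM (0.51), S100a4 at 400 and 637 CPM (0.63) and Ecm1 at 99.4 and 156 CPM (0.64). The transcription factors Zeb1 (64.2 and 108 CPM), Snai2 and Prrx1 had ratios of 0.59, 0.46 and 0.54, and Snai1, with 15 member UMIs, 0.37. Vim was at 3490 and 3536 CPM (0.99) and did not differ by size. Among the purer cells 2 of 13 EMT genes were lower, Fn1 (0.51) and Tgfbi (0.34), and the matrix gene Tnc was higher (1.83), with a median of -0.37. The ratio there was 0.70 for Zeb1 and Ecm1 and 0.92 for Sparc, so that most of the 8 genes no longer passed the rule. The purer cells were filtered on fibroblast genes among others. Over the 10 bins by score the fibroblast list went from 1843 to 125 CPM and the EMT list from 9282 to 5683 CPM. How far the filter itself set the weaker EMT ratios was not tested.

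**Figure D4:**
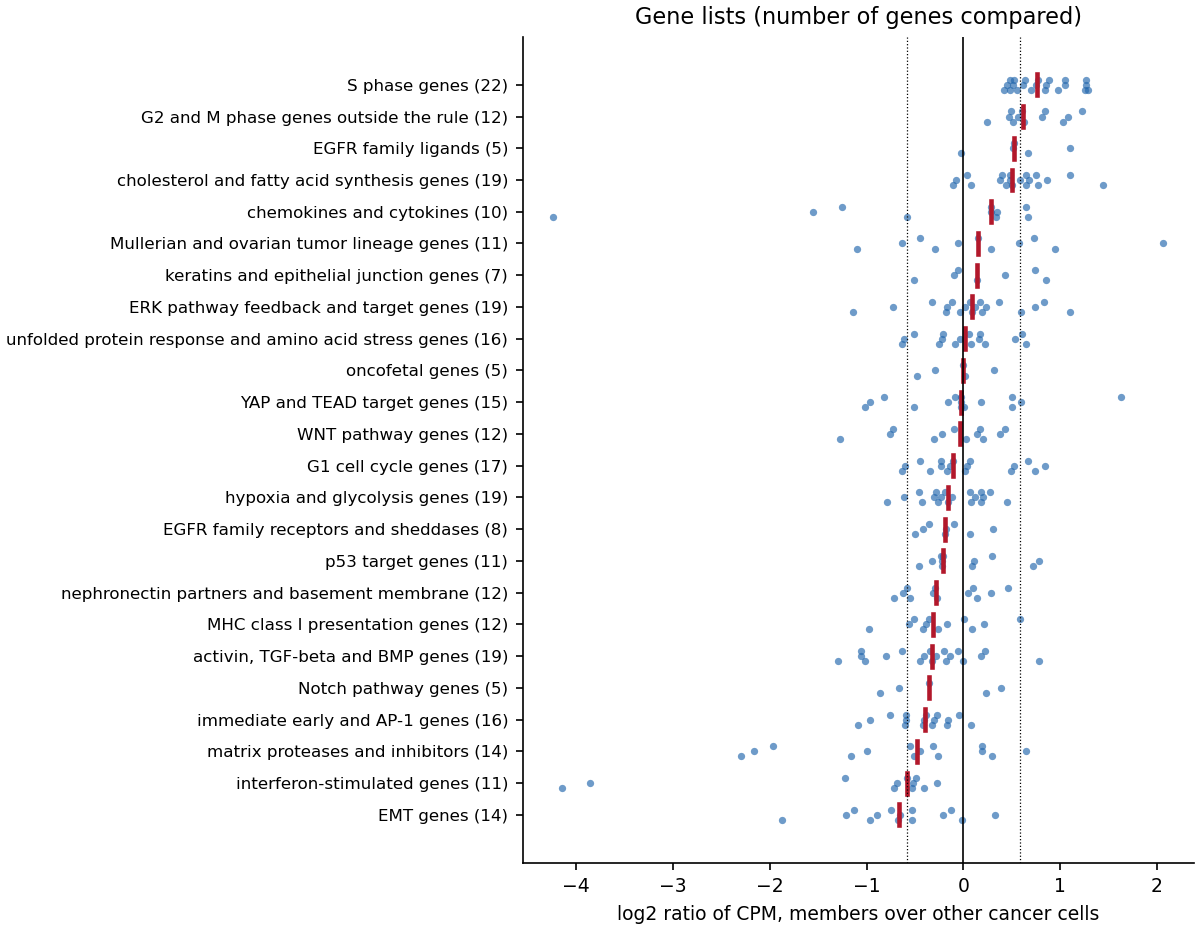
Log2 ratio of CPM in members over other cancer cells for each compared gene (blue points) of the 24 gene lists, cell type markers aside, with at least 5 genes compared, with list medians (red bars) and the limits of the size rule (dotted lines). All S phase genes lay right of 0, with a median of 0.76, and EMT genes had the lowest median, -0.66.

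Members were low in 2 genes used to describe another group of cancer cells in these tumors. Lbp, the gene of lipopolysaccharide-binding protein, was at 31.6 CPM in members and 168 CPM in other cancer cells (0.19, interval 0.16 to 0.21), and the transcription factor gene Sox9 at 165 and 288 CPM (0.57). The ratios over the purer cells were 0.28 and 0.59. Of the 232 cells with the highest share of Lbp and Sox9, 3 were members, which is 1.29% of either group against 10.04% of all cells. Over the 10 bins of cells by score, Lbp went from 312 CPM in the lowest to 30.3 CPM in the highest.

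Activin, TGF-beta and BMP genes were compared because the study concerns the activin antagonists Fst and Fstl3. Of 19 compared, Gdf15 was higher and 6 were lower: Bmp1 (0.41), the co-receptor Tgfbr3 (0.48, 41.5 and 86.6 CPM), Fstl1 (0.48), Tgfb2 (0.50), Tgfb3 (0.58) and Fstl3 (0.64, 8.99 and 14 CPM). In the purer cells Tgfbr3 alone of 17 was lower (0.58) and the ratio of Fstl1 was over 1 (2.14, from too few UMIs for the rule). Inhba, the activin A subunit, was at 52.6 and 64.1 CPM (0.82) and its receptor Acvr2a at 22.5 and 25.7 CPM (0.87, interval 0.74 to 1.02). Acvr2b had 12 member UMIs and Fst a ratio of 1.26 (0.92 to 1.68), and neither reached 500 UMIs. Fstl3 here is the mouse gene.

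Interferon-stimulated genes were lower in members where they passed the rule. Of 11 compared, 0 were higher and 5 lower (Ifit1, Cxcl10, Isg15 at 0.43, Stat2 at 0.61 and Irf1 at 0.62), with a median log2 ratio of -0.58. In the purer cells Ifit1 alone of 8 was lower. Of 12 genes of MHC class I presentation, the proteasome subunit Psmb10 was higher (1.5) and the peptide transporter Tap1 lower (0.51), and B2m was at 361 and 515 CPM (0.70). Over the purer cells Psmb10 (1.51) was higher and 0 of 10 were lower. Of 10 chemokines and cytokines, Cxcl5 (1.59), which attracts neutrophils, and Lif (1.57, or 1.47 over the purer cells) were higher, and Ccl2 (0.34), Ccl7 and Cxcl12 (0.42) were lower. Over the purer cells 7 of them were compared. Cxcl5 (1.59) was higher and Ccl2 (0.46) lower there, and Ccl7 and Cxcl12 did not pass the rule.

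Other lists held few or mixed changes. Of 11 Mullerian and ovarian tumor genes, Cldn6, Cldn3 (1.65) and Muc1 (1.93, 14 and 7.26 CPM) were higher and Esr1, the estrogen receptor gene (0.47, 33.2 and 71.3 CPM), and Emx2 (0.65) lower, while Msln (1.49) stayed just under the rule. Over the purer cells 8 of these were compared, and Cldn3 and Esr1 alone passed the rule. Emx2 had a ratio of 0.75 there. Nephronectin partners and basement membrane genes gave Col4a1 (0.61), Lamc1 (0.65) and Lamb2 (0.67) as lower and none of 12 as higher, and over the purer cells 0 of 12 were lower, with ratios of 0.83, 0.70 and 0.74. Slpi, a WAP domain gene like Wfdc2, was lower (0.31) and Prl2c3, the close paralog of Prl2c2, higher (2.38). Over the purer cells Slpi was not lower by the rule, and Prl2c3 stayed higher (1.95). Matrix protease genes gave 5 lower of 14 (Mmp19, Mmp7, Adamts1, Timp3 and Mmp3) and the urokinase receptor Plaur higher (1.57, or 1.40 over the purer cells). Over the purer cells 4 of 12 were lower (Adamts1, Timp3, Mmp3 and Mmp13), without Mmp19 and Mmp7. In the WNT list Wnt4, Dkk2 and Dkk3 were lower, and in the Notch list Hes1 and Notch2. Of these 5, Wnt4 (0.50) and Hes1 (0.66) were also lower over the purer cells, while Dkk2 and Dkk3 (0.70 each) and Notch2 (0.73) were not. Of 19 hypoxia and glycolysis genes P4ha1 and Ndrg1 were lower, and of 16 stress response genes Sdf2l1 and Slc7a11 were higher and Atf5 and Dnajb9 lower. Over the purer cells P4ha1 (0.61), Sdf2l1 (1.70) and Atf5 (0.62) still passed the rule, and Ndrg1, Slc7a11 and Dnajb9 did not. None of 5 oncofetal genes passed the rule, nor did Trp53 and Akt2, which are altered in KPCA.

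RNA of red blood cells and acinar cells was uneven. The hemoglobin genes Hbb-bs and Hba-a1 had ratios of 2.41 and 2.28, but 5 members held 98.8% and 98.6% of their UMIs, and the ratios over the purer cells were 0.80 and 0.95. The pancreatic acinar list summed to 18.1 CPM in members and 49.3 CPM in other cancer cells, and the macrophage list to 36.2 and 46.6 CPM.

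Among the 8 genes whose level over cells was most like that of any score gene, by Spearman's rho over 8106 genes in the 2311 cells thinned to 5000 UMIs, were S100a6 (0.39), Krt7 (0.36), Krt8 (0.33), Actb (0.32), Ran (0.31) and Mgst3 (0.31), all by their likeness to Wfdc2, and Prl2c3 (0.33), by its likeness to Prl2c2. Cells of 1 library share its depth and base composition, and no p-value belongs to these ranks. In members S100a6 was at 11459 CPM and in other cancer cells at 8050 CPM (1.42), Krt8 at 1444 and 862 CPM (1.68), Actb at 5660 and 3744 CPM (1.51), the nuclear transport gene Ran at 741 and 474 CPM (1.56) and the glutathione enzyme Mgst3 at 290.0 and 155 CPM (1.87). None of these was placed by its likeness to Areg or Npnt.

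Members differed among themselves in Areg. Split at their median Areg share into 116 Areg-richer and 116 Areg-poorer members, with median depths of 33648 and 27111 UMIs, Areg was at 711 CPM (686 to 737) and 39.3 CPM (32.8 to 46.6), the latter under the 72.1 CPM of other cancer cells. Wfdc2 ran the other way, at 1311.5 CPM in Areg-richer and 1895.5 CPM in Areg-poorer members, since either gene could carry a cell over the limit. Hbegf was at 442 and 205 CPM, F3 at 154 and 73.4 CPM, Phlda1 at 332 and 186 CPM and Krt13 at 128 and 64.7 CPM.

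Hbegf and Phlda1 in Areg-poorer members thus lay near their levels in other cancer cells, 214 and 178 CPM. Krt7 was at 408 CPM in Areg-richer and 553 CPM in Areg-poorer members, Ccnd1 at 1072 and 1145.5 CPM, and the S phase list at 901 and 935 CPM, beside 527 CPM in other cancer cells. Higher Ccnd1 and S phase levels were therefore found in members with and without high Areg, and higher Hbegf and Phlda1 levels in Areg-richer members. Areg-richer and Areg-poorer members also differed in Wfdc2 and in depth. Whether the Hbegf and Phlda1 levels followed Areg, Wfdc2 or depth was not tested.

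The same rule was applied to the KPCA.FSTKO_hFSTL3 library, which took no part in choosing the members. Its gate held 1262 non-mitotic cancer cells, whose own top 10% were 127 cells with a limit of 0.0351% of UMIs. Only 4 of the 1262 cells, or 0.317% (0.0864 to 0.810%), exceeded the KPCA.FSTKO limit. Areg was at 282 CPM in the 127 cells, Wfdc2 at 192, Npnt at 175 and Prl2c2 at 5.00 CPM. Genotype and library cannot be told apart here. The gate of that library also carried many UMIs of markers of other cell types. The acinar list summed to 2757 CPM in the 127 cells and 5857 CPM in the rest. The macrophage list summed to 1048 and 2141 CPM and the fibroblast list to 832 and 1512 CPM. The median mitochondrial share of its kept barcodes was 10.7%, against 3.54% in KPCA.FSTKO.

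In that library Areg had a ratio of 5.94 (5.43 to 6.5), Wfdc2 3.40, Npnt 3.29 and Prl2c2 3.03 (1.57 to 5.59), as the rule fixes. In cells chosen by the remaining 3 genes the ratio was 2.51 for Areg (2.26 to 2.79), 1.72 for Wfdc2 (1.53 to 1.92), 2.40 for Npnt (2.15 to 2.68) and 1.43 for Prl2c2 (0.614 to 2.97), the last from 9 UMIs in the chosen cells. Areg, Wfdc2 and Npnt were thus each higher in cells chosen without them in both libraries, with intervals that cover counting error alone. For Prl2c2 this was not detectable at its depth in KPCA.FSTKO_hFSTL3. The top-scoring cells of that library also had lower acinar, macrophage and fibroblast CPM than the rest. Choosing by the remaining 3 genes was not repeated there without cells rich in acinar genes. How far RNA of other cell types set these ratios was therefore not tested.

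Ccnd1 was at 889 CPM in the 127 cells and 466 CPM in the rest, a ratio of 1.91 (1.83 to 1.99). Without cells rich in acinar genes, which left 14 and 125 cells, it was 1.68 (1.57 to 1.79). Of 5880 genes compared there, 419 were higher (7.13%) and 277 lower (4.71%), with a median log2 ratio of 0.13. Among 5734 genes compared in both libraries, 62 were higher in both, which is 23.8% of the 261 higher in KPCA.FSTKO and 14.9% of the 417 higher in KPCA.FSTKO_hFSTL3. The 59 lower in both were 19.8% of 298 and 42.1% of 140. Over all 5734 genes, 4.55% were higher in KPCA.FSTKO and 7.27% in KPCA.FSTKO_hFSTL3, and 5.20% and 2.44% were lower.

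Genes higher in both included Ccnd1, Ccnd2 (1.59 in KPCA.FSTKO, or 1.49 over its purer cells, and 1.57 in KPCA.FSTKO_hFSTL3), F3 (3.1 and 2.54), Nrcam (3.14 and 3.67), Epha4 (2.15 and 1.84), Hbegf (1.58 and 1.81), Mcm2, Mcm3 and Mcm6. Acan had a ratio of 6.21 (4.22 to 9.10) there from too few UMIs for the rule. Btc was higher by the rule only in KPCA.FSTKO_hFSTL3 (2.94, beside 1.43), and Krt7 only in KPCA.FSTKO (3.02, beside 1.03); the difference between libraries was not tested. Of the S phase list 4 of 11 were higher (Mcm2, Mcm3, Mcm6 and Pola1) and 0 lower, with a median of 0.38 on the log2 scale, Pcna being at 1.00 and Tyms at 0.77. Of 10 G2 and M phase genes and 14 sterol and fatty acid genes, 0 and 1 (Acaca) were higher, and of 12 EMT genes Tnc and Sparc were lower, with a list median of 0.13 as for all genes of that library. The mitotic, sterol and EMT patterns of KPCA.FSTKO were therefore not seen there at this size, beside a gate of other composition.

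**Figure D5:**
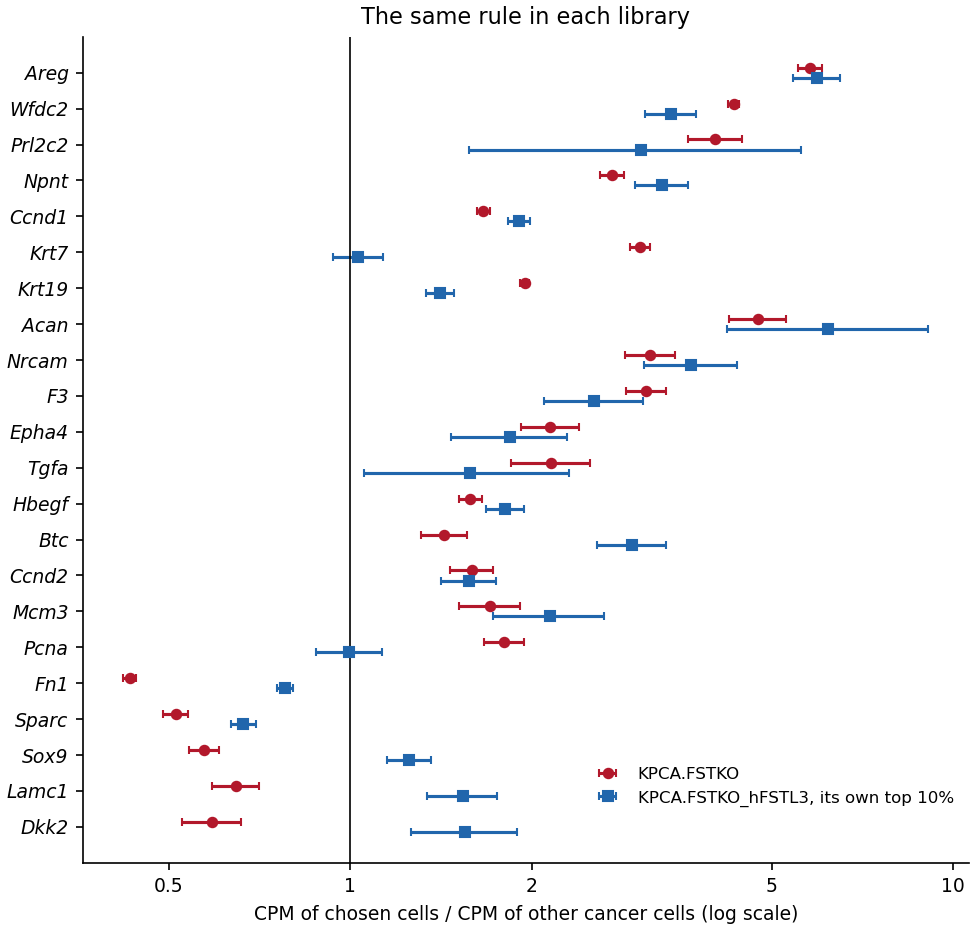
Ratio of CPM in the cells with the top 10% of scores over the other cancer cells (log scale, 95% counting intervals) in KPCA.FSTKO (red circles) and KPCA.FSTKO_hFSTL3 (blue squares). Areg, Ccnd1, Acan, Nrcam and F3 lay right of 1 in both, Krt7 and Pcna lay near 1 in KPCA.FSTKO_hFSTL3, and Lamc1 and Dkk2 lay on opposite sides of 1.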

How the data were processed

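Tumor cells were measured with a 10x Genomics 3' kit. The authors aligned reads to mm10 (GRCm38) with Cell Ranger (3.1.0 in the methods and submitters' notes, 7.2.0 in the matrix headers) and deposited raw UMI counts per gene and barcode. The methods give as cell numbers after quality control the numbers of deposited barcodes, yet some of these barcodes did not meet the stated filters on mitochondrial share and gene number, a conflict that was not resolved. No replicates exist, and no test was run.

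Here barcodes with under 20% mitochondrial UMIs and 201 to 7999 genes were kept. Cancer cells had at least 5000 UMIs, at least 0.1% of UMIs from Krt7, Krt8, Krt18 and Krt19, no Ptprc or Pecam1 UMI and under 0.1% from 8 mitotic genes. Members were the 10% with the highest share from the 4 score genes. Doublets were kept, since the methods name no doublet step. UMIs were summed per group and scaled to 1000000. Intervals are exact (conditional binomial for ratios, Poisson for levels, Clopper-Pearson for shares). Macrophage-marker cells had a Ptprc UMI, at least 0.5% macrophage marker UMIs, under 0.1% keratin UMIs and at least 5000 UMIs. Named genes were the score genes, Ccnd1, the 12 largest and 12 smallest ratios, list genes past the size rule with up to 4 of most UMIs per list, genes the study names and the 8 most like the score genes; others were chosen after their values were seen. Members and lists were chosen with earlier results of these data known. The 38 symbols with 2 identifiers were left out of lists. The size rule was tested on simulated Poisson counts drawn from pooled gene levels. These had no differences between cells and no choice of cells on measured levels, so they check counting error alone. edgeR 4.0.16 (R 4.3.3) gave the TMM scaling, and pandas 2.3.3, scipy 1.17.1 and numpy 2.4.6 (Python 3.11.15) the rest, with figures from matplotlib 3.10.9. 20 alternatives were planned and 0 added. Human FSTL3 was not analysed here. Results of some genes are not reported here.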

Additional observations from a re-analysis of the deposited data

Results flagged for a closer look

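Of the genes named, 4 passed the size rule in opposite directions in the 2 libraries, and the difference between libraries was not tested. Lamc1, a laminin chain gene, had a ratio of 0.647 in KPCA.FSTKO members and 1.54 (interval 1.34 to 1.75) in the top 10% of KPCA.FSTKO_hFSTL3. Dkk2, a secreted WNT modulator, had ratios of 0.590 and 1.55 (1.26 to 1.89). Over the cells of KPCA.FSTKO without those rich in other cell type markers, Lamc1 and Dkk2 had ratios of 0.70 each and did not pass the rule. The hemoglobin gene Hbb-bs had ratios of 2.41 and 0.616 (0.594 to 0.639), and Hba-a1 ratios of 2.28 and 0.605 (0.568 to 0.643). In KPCA.FSTKO, 5 members held 98.8% of the members' Hbb-bs UMIs and 98.6% of their Hba-a1 UMIs, and without the cells rich in other cell type markers the ratios were 0.80 and 0.95.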

How the results depend on the processing

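No paired analysis was possible because each genotype had 1 library. Of 479 log2 ratios of 37 named genes recomputed under 13 settings, 469 kept their sign. Sizes held less well than signs. Of the 37 ratios, 13 counted as the same when each score gene weighed the same and 16 without cells rich in other cell type markers. At a keratin minimum of 0.2% 19 did so, and 20 in cells thinned to 5000 UMIs. All 37 did so with CPM taken without the score genes and at a mitochondrial share under 10%. Postn turned to 1.57 when each score gene weighed the same, a choice that kept 120 of the 232 members. Counts of higher and lower genes were 113 and 186 at a minimum ratio of 2, 1132 and 1077 at a minimum of 100 UMIs, and 154 and 200 in cells thinned to 5000 UMIs. With each score gene weighing the same 332 were higher, and 351 with cells chosen on a random split of their UMIs and measured on the other UMIs. Without cells rich in other cell type markers 254 were lower, and 315 at a keratin minimum of 0.2%. In cells chosen by the remaining score genes, the ratios in cells of 10000 to 40000 UMIs were 2.94 for Areg, 1.90 for Wfdc2 and 2.23 for Npnt, and thinned to 5000 UMIs 2.17 for Areg, 1.65 for Wfdc2 and 2.45 for Prl2c2. The Ccnd1 ratio in KPCA.FSTKO_hFSTL3 was 2.28 in the 4 cells above the KPCA.FSTKO limit and 1.68 without cells rich in acinar genes. Thinning lowers the UMIs, so fewer genes reach the minimum; the cause of the other shifts was not tested. With 1 library per genotype, intervals cover counting error alone, and genes of few UMIs, such as Prl2c2 in KPCA.FSTKO_hFSTL3, are limited by depth.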
